A study of Homo sapiens with 6 samples.

Results

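The 10 genes described here encode enzymes that modify and crosslink collagen: the lysyl oxidases LOX, LOXL1, LOXL2, LOXL3 and LOXL4, the lysyl hydroxylases PLOD1, PLOD2 and PLOD3, and the prolyl 4-hydroxylase alpha subunits P4HA1 and P4HA2. Every probe set of the array whose annotation named only 1 of these genes was taken, which gave 28 probe sets for the 10 genes, of 49293 probe sets and 18132 genes in all. The arrays measured messenger RNA in U87 cells, an established human glioma line, that overexpressed either miR-151a (3 samples) or the control microRNA miR-NC (3 samples). The labels name no drug, time point, vector or microRNA arm, and every sample, controls included, carried an overexpressed microRNA. The labels do not tell whether samples of a group were grown as separate cultures, and p-values here therefore reflect sample-to-sample spread that could be technical.

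Collagen chains are hydroxylated in the endoplasmic reticulum by enzymes that need iron, ascorbate, oxygen and 2-oxoglutarate. Hydroxyproline, made by prolyl 4-hydroxylase, stabilizes the triple helix, and hydroxylysine, made by the lysyl hydroxylases, sets where sugars are attached and which crosslinks can form. After secretion the copper-dependent lysyl oxidases convert lysine and hydroxylysine side chains to reactive aldehydes that join neighbouring collagen or elastin molecules. In solid tumours several of these enzymes are known as hypoxia-induced genes and for their part in stiffening the matrix.

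With miR-151a, transcripts of LOX, LOXL1, LOXL2, PLOD1, PLOD2 and P4HA1 were lower on at least 1 probe set, by 11.4% to 26.3%. Of the 28 probe sets, 11 fell and 0 rose past an adjusted p of 0.05 in limma, a linear model across all probe sets (14 and 0 at an unadjusted p under 0.05). Over the whole array 7.27% of probe sets fell and 6.81% rose past that adjusted p. The share of all probe sets at an unadjusted p under 0.05 was not counted, so the 14 has no background beside it. These shares include many dim probe sets, whereas 25 of the 28 were above the median of every array. Without probe sets under the 0.25 quantile of level, 4440 fell over the array instead of 3585, and 12 instead of 11 among these enzymes. These counts are over fewer probe sets, as the 2 of LOXL4 and many others were left out, and are not shares of 49293 or 28. That cut keeps many probe sets under the array median, and a share among probe sets as bright as these was not computed. The median log2 difference was -0.14 over the 28 probe sets and -0.01 over all probe sets. When each gene was represented by its brightest probe set, 5 of the 10 fell and 0 rose, beside 8.11% of all genes lower and 7.27% higher, and all 10 differences were negative, from -0.42 to -0.02 (with the mean over probe sets LOXL4 and PLOD3 were at 0.0077 and 0.054). Probe sets of 1 gene can read the same transcripts and may share probes, so they cannot be taken as independent of each other. All differences are on the log2(intensity + 1) scale, where 1 unit is a doubling.

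Fewer probe sets fell when any 1 sample was left out, both over the whole array and among these enzymes. Over the array the 3585 falls became 1893 to 2426, and the 1470 falls of genes became 800 to 1021. Among these enzymes the 11 falls became 8, 7 and 7 without miR-151a samples 1, 2 and 3. They became 7, 5 and 9 without miR-NC samples 1, 2 and 3, and 0 enzyme probe sets rose in any of those fits. At the level of genes the 5 falls became 2 without any 1 of the 3 miR-151a samples or miR-NC samples 1 and 2, and 3 without miR-NC sample 3. A total of 5 probe sets kept their call in all of these fits and in all other settings tried: 1 of LOX, 2 of LOXL2, 1 of PLOD1 and 1 of PLOD2.

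**Figure D1:**
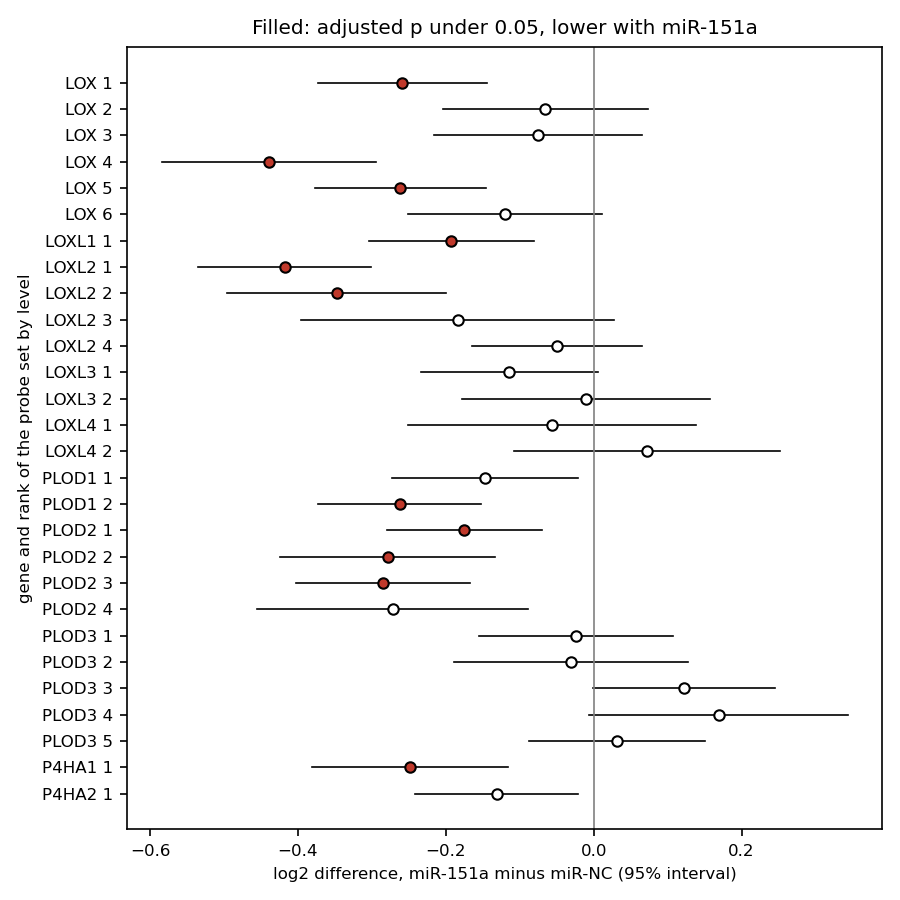
Log2 difference between miR-151a and miR-NC samples (x axis) for each of the 28 probe sets (y axis, numbered within a gene from the brightest), with the 95% interval of the limma fit; filled points passed an adjusted p of 0.05. The 11 filled points all lie left of 0, and the 5 probe sets of PLOD3 lie on both sides of it, from -0.03 to 0.17.

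The array medians lay between 57.1 and 58.6, and replicates of a probe set had a median SD of 0.080 (log2). Of the 28 probe sets, 25 were above the median of every array and 1, the dimmer one of LOXL4, was below the lower quartile of every array. Glioma markers were measured in both groups. VIM, an intermediate filament gene, was bright at 19170 ± 297 and 19019 ± 484 intensity units (miR-151a and miR-NC, SD, n = 3 each). The astrocyte marker GFAP (61.4 ± 1.36 and 63.2 ± 0.592, SD, n = 3 each) lay close to the array median. Of the other glioma markers, CD44 (means 5687 and 6332) and NES (134 and 166) lay above the median and OLIG2 (63.8 and 57.7) near it. SOX2 (48.0 and 48.1) and S100B (19.2 and 19.0) lay below it. Of 8 fibroblast and pericyte markers 4 rose and 0 fell, beside 7.27% and 8.11% of all genes. The summed intensity of the 8 ran from 1051 to 1156 with miR-151a and from 923 to 980 with miR-NC. ACTA2, the brightest of the 8, had a limma adjusted p of 0.0499 in the fit over genes. In the fit over probe sets 0 of its 3 probe sets passed. With the mean over probe sets ACTA2 was at 0.048 and DCN at 0.12, and neither passed (limma adjusted p = 0.52 and 0.18). RGS5 and LUM, the other markers that rose, passed with that mean too, at 0.28 and 0.88. Among the other markers 1 of 4 immune markers rose, the dim gene CD163, and 1 of 7 glioma markers fell, the filament gene NES. For endothelial and epithelial markers, 0 of 4 and 0 of 2 passed in limma (1 and 0 at an unadjusted p under 0.05). Beside the shares of all genes, counts of 0 or 1 say little about lists this small. For the control transcript of beta-actin, the log2 ratio of 3 prime over 5 prime signal ran from 0.27 to 0.30 with miR-151a and from 0.37 to 0.43 with miR-NC, and that of GAPDH from 0.045 to 0.052 and from 0.029 to 0.049. The part of these markers and ratios in the differences below was not tested. In bulk RNA, fewer cells that express a gene and less RNA per cell cannot be told apart.

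The promoters of 4 enzymes with a lower probe set are shown because they hold the core of the hypoxia response element, the binding word of hypoxia-inducible factors. Each is the 250 bases before the gene's start in RefSeq (GRCh38.p14), 5′ to 3′ on the gene's strand, with matches to ACGTG or GCGTG on either strand in capitals (CACGT and CACGC are the same words on the other strand, and overlapping matches were allowed). LOX lies at chr5:122078260-122078509, minus strand, PLOD1 at chr1:11934467-11934716, plus strand, PLOD2 at chr3:146161185-146161434, minus strand and P4HA1 at chr10:73096867-73097116, minus strand.
LOX: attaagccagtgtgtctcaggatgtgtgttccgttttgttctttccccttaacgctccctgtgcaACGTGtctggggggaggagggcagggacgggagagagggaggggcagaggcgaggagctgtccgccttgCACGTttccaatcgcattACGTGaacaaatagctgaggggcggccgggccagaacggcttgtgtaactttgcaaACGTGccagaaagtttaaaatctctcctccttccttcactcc
PLOD1: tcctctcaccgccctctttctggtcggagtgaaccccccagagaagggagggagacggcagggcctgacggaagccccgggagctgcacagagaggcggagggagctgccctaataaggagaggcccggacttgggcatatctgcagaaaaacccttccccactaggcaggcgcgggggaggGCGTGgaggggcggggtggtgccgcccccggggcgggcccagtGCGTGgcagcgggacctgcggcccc
PLOD2: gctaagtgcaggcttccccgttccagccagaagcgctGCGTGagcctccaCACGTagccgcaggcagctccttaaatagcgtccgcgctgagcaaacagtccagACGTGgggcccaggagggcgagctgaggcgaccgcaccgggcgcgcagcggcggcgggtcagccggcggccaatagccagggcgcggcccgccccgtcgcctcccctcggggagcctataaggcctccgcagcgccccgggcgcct
P4HA1: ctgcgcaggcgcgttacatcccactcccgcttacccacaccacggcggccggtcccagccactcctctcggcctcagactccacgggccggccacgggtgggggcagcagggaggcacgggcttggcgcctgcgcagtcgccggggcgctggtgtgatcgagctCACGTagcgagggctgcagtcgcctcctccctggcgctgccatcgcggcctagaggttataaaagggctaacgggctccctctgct
LOX held 4 matches, PLOD2 3, PLOD1 2 and P4HA1 1, and the match nearest to the start lay 42, 146, 25 and 86 bases before it. No match stood in the same window of LOXL1, LOXL3, LOXL4, PLOD3 and P4HA2. Such a match was present in 43.1% of 27305 promoter windows of this length, and 4 of the 9 windows read here had one; the window of LOXL2 was not used here. A match is a stretch of letters and not a known binding site.

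LOX, the founding enzyme of the lysyl oxidase family, was read by 6 probe sets, of which 3 fell. The brightest (11728201_at) was at 9.48, 9.52 and 9.58 in miR-151a samples 1, 2 and 3 and at 9.77, 9.81 and 9.79 in miR-NC samples 1, 2 and 3, as log2(intensity + 1). All 3 values with miR-151a lay below all 3 with miR-NC. Its log2 difference was -0.26 (95% interval -0.37 to -0.15; limma adjusted p = 0.012), or 16.4% lower. The probe set 11758995_at was at 7.83, 7.78 and 7.75 with miR-151a and at 8.34, 8.21 and 8.14 with miR-NC. Here too the groups did not overlap, and the difference of -0.44 (-0.58 to -0.29; limma adjusted p = 0.0038) was the most negative of the 28. The probe set 11746597_a_at was at -0.26 (adjusted p = 0.012 in limma). Without miR-NC sample 2 the adjusted p was 0.0503 for the brightest and 0.052 for 11746597_a_at.

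The other three LOX probe sets did not pass. They were at -0.07 (11728200_a_at), -0.08 (11750970_a_at) and -0.12 (11728199_s_at), with intervals whose most negative bounds were -0.20, -0.22 and -0.25. The first of these read 8.96, 8.91 and 8.83 with miR-151a and 9.02, 8.88 and 8.99 with miR-NC, and the groups overlapped. The ratio of 11758995_at to 11728200_a_at on the same array ran from -1.13 to -1.08 (log2) with miR-151a and from -0.85 to -0.67 with miR-NC, a difference of -0.37. This pair was chosen as the extremes of the gene, so the sign of its shift is built in and carries no test. Averaged over the 6 probe sets, LOX was at -0.20 (limma adjusted p = 0.0068).

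LOXL2, a lysyl oxidase with scavenger receptor domains that acts on basement membrane collagen, had 4 probe sets, of which the 2 brighter ones fell. The brightest (11718832_a_at) was at 9.48, 9.57 and 9.56 with miR-151a and at 9.95, 9.98 and 9.93 with miR-NC. The groups were far apart compared with their spread, at 9.53 ± 0.051 and 9.95 ± 0.027 (SD, n = 3 each). The difference was -0.42 (95% interval -0.53 to -0.30; limma adjusted p = 0.0019), or 25.2% lower. The second (11751288_a_at) was at 9.07, 9.13 and 9.06 with miR-151a and at 9.56, 9.36 and 9.38 with miR-NC, a difference of -0.35 (-0.50 to -0.20; limma adjusted p = 0.011). Both calls stayed in each of the 13 alternative fits, with adjusted p up to 0.014 and 0.040. The 2 dimmer ones were at -0.18 (-0.40 to 0.03) and -0.05 (-0.16 to 0.07), with overlapping groups. Averaged over its 4 probe sets LOXL2 was at -0.25 (adjusted p = 0.0088 in limma).

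LOXL1, which is known for crosslinking elastin, had 1 probe set (11717551_a_at). It was at 9.46, 9.52 and 9.53 with miR-151a and at 9.68, 9.69 and 9.72 with miR-NC, with no overlap. The difference was -0.19 (95% interval -0.30 to -0.08; limma adjusted p = 0.035). This call is not stable: the adjusted p lay between 0.068 and 0.11 without any 1 of the 6 samples, at differences from -0.20 to -0.17.

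LOXL3 and LOXL4, the remaining lysyl oxidases, had 0 probe sets past the threshold in limma, and 0 at an unadjusted p under 0.05 in the fit over probe sets. In the fit over genes LOXL3 had an unadjusted limma p of 0.048 and an adjusted p of 0.17. The brighter LOXL3 probe set (11721392_a_at) was at 7.42, 7.52 and 7.41 with miR-151a and at 7.58, 7.57 and 7.55 with miR-NC, which do not overlap, yet its difference of -0.11 (-0.23 to 0.01) had an adjusted p of 0.20 in limma. Its dimmer probe set was at -0.01 (-0.18 to 0.16). The 2 probe sets of LOXL4 were at -0.06 (-0.25 to 0.14) and 0.07 (-0.11 to 0.25). LOXL4 read between 3.26 and 4.11 in the 6 samples, near or below the lower quartile of the arrays, and the interval of its brighter probe set includes a change as large as that of LOXL1.

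**Figure D2:**
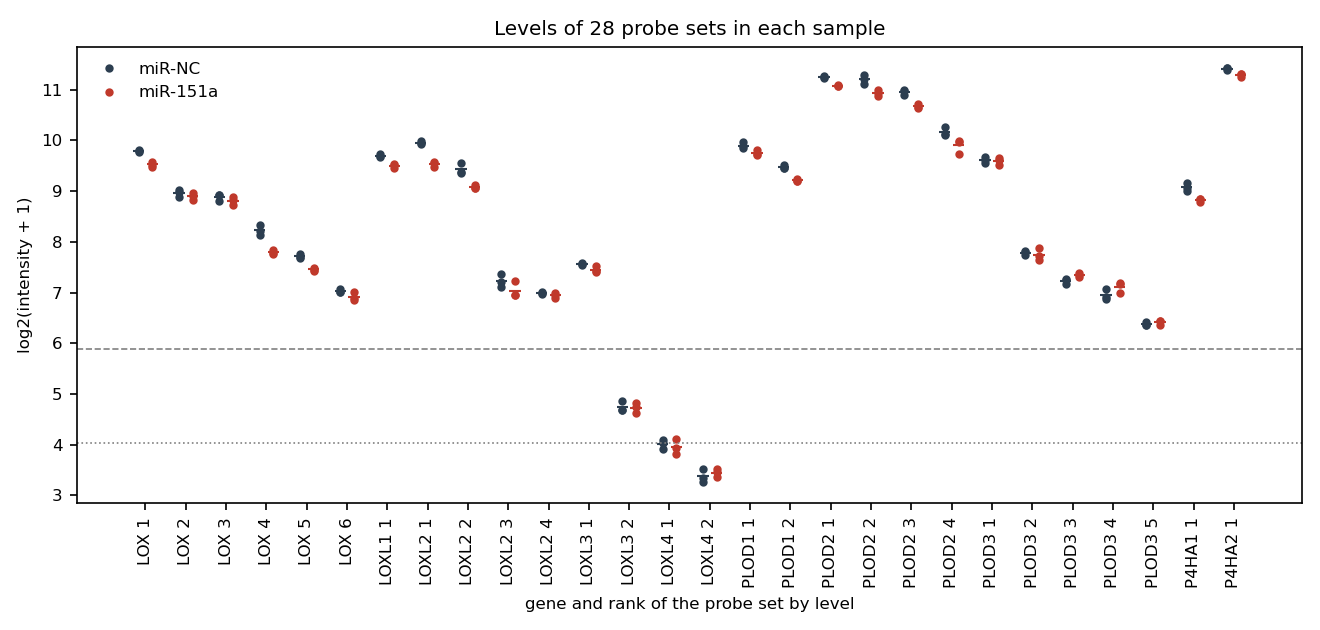
Level of each of the 28 probe sets, as log2(intensity + 1) on the y axis, in the 3 miR-NC (dark) and 3 miR-151a (red) samples; short bars are group means, and the dashed and dotted lines mark the mean array median and lower quartile. In 16 of the 28 the red points lie wholly below the dark ones, as was so for 18.6% of all probe sets on the array. The 4 probe sets of PLOD2 and the first 2 of LOXL2 are among these 16, while the LOXL4 points overlap near the dotted line.

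PLOD2, the lysyl hydroxylase of collagen telopeptides, whose hydroxylysine leads to the more stable pyridinoline crosslinks, had 4 probe sets, of which 3 fell. The third by level (11721335_x_at) was at 10.71, 10.65 and 10.67 with miR-151a and at 11.00, 10.97 and 10.90 with miR-NC. Its difference was -0.28 (95% interval -0.40 to -0.17; limma adjusted p = 0.0095), or 17.9% lower, and it kept its call in all 13 alternative fits. The x in its name marks, in Affymetrix naming, a probe set with probes that may also bind other transcripts. The brightest (11721333_a_at) was at 11.07, 11.07 and 11.09 against 11.24, 11.26 and 11.26, a smaller difference of -0.17 (-0.28 to -0.07; limma adjusted p = 0.039). Without any 1 of the 6 samples its adjusted p lay between 0.084 and 0.12. With quantile normalization this probe set was at -0.15 and also lost its call (limma adjusted p = 0.061). The second (11721334_a_at) was at -0.28 (limma adjusted p = 0.024), with adjusted p from 0.065 to 0.078 without miR-151a sample 2 or 3 or miR-NC sample 1 or 2. The fourth (11748610_a_at) had a like difference, -0.27, with a wider interval from -0.46 to -0.09 and an adjusted p of 0.059 in limma. In all 4 the groups did not overlap, as was so for 18.6% of probe sets on the array in this direction.

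PLOD1, a hydroxylase of helical lysines, had 2 probe sets. The dimmer (11715611_a_at) was at 9.20, 9.19 and 9.25 with miR-151a and at 9.47, 9.45 and 9.51 with miR-NC, and fell by 0.26 on the log2 scale (95% interval -0.37 to -0.15; limma adjusted p = 0.010). The brighter (11749491_a_at) was at 9.73, 9.71 and 9.80 against 9.96, 9.89 and 9.85. Its groups were also apart, but the difference of -0.15 (-0.27 to -0.02) had an adjusted p of 0.12 in limma, so PLOD1 does not count among the 5 genes called by their brightest probe set. With the mean over both probe sets PLOD1 was at -0.20 (limma adjusted p = 0.010).

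PLOD3, which also transfers the glucose of collagen's hydroxylysine-linked sugars, had 5 probe sets, of which 0 passed in limma and 0 had an unadjusted p under 0.05. The brightest (11758519_s_at) was at 9.52, 9.65 and 9.61 with miR-151a and at 9.62, 9.67 and 9.56 with miR-NC, overlapping groups with a difference of -0.02 (95% interval -0.16 to 0.11). The other probe sets lay between -0.03 and 0.17. One of them (11749506_x_at) was at 7.35, 7.38 and 7.30 against 7.24, 7.16 and 7.27, the 1 probe set of the 28 with all miR-151a values above all miR-NC values (15.3% of all probe sets). Its difference was 0.12 (-0.0014 to 0.24; limma adjusted p = 0.18).

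P4HA1 and P4HA2, the catalytic subunits that pair with protein disulfide isomerase to form prolyl 4-hydroxylase, had 1 probe set each. P4HA1 (11730853_s_at) was at 8.84, 8.84 and 8.79 with miR-151a and at 9.16, 9.06 and 8.997 with miR-NC. It fell by 0.25 on the log2 scale (95% interval -0.38 to -0.12; limma adjusted p = 0.026), or 15.8%, and the groups did not overlap. Its adjusted p was above the threshold, from 0.059 to 0.081, without any 1 of the 3 miR-151a samples or without miR-NC sample 1 or 2. P4HA2 (11717118_a_at) was at 11.25, 11.31 and 11.31 against 11.43, 11.44 and 11.39. These values do not overlap either, but the difference of -0.13 (-0.24 to -0.02) had a limma adjusted p of 0.12.

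Whether enzymes of 1 family differed in their change was tested on the log2 ratio of their brightest probe sets within each array, over 14 pairs. The LOXL2 to LOXL1 ratio was lower with miR-151a by 0.23 on the log2 scale (95% interval of LOXL1 minus LOXL2 0.14 to 0.31). For LOX minus LOXL2 the difference was 0.16 (0.09 to 0.23), and for LOXL2 minus LOXL3 it was -0.30 (-0.41 to -0.20). Ratios of the 2 groups did not overlap in any of these 3 pairs. The ratios rest on 1 probe set per gene, and the probe sets of LOX and of LOXL2 differed among themselves. With the mean over probe sets the genes lay closer together: LOX at -0.20, LOXL1 at -0.19, LOXL2 at -0.25 and LOXL3 at -0.06. Whether the enzymes or only these probe sets differed was not tested. PLOD2 changed by -0.15 (-0.29 to -0.01) relative to PLOD3, whereas PLOD1 minus PLOD2 was at 0.03 (-0.10 to 0.16), with overlapping groups. P4HA1 minus P4HA2 was at -0.12 (-0.26 to 0.03). In 8 of the 14 pairs the groups did not overlap. The pairs reuse the same probe sets, so these are not 8 separate results. Among single probe sets of the array, the groups did not overlap in 18.6% (lower) and 15.3% (higher). An exact two-sided permutation test of 3 against 3 samples cannot go below p = 0.1, and the smallest p adjusted over the 14 pairs was 0.175.

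**Figure D3:**
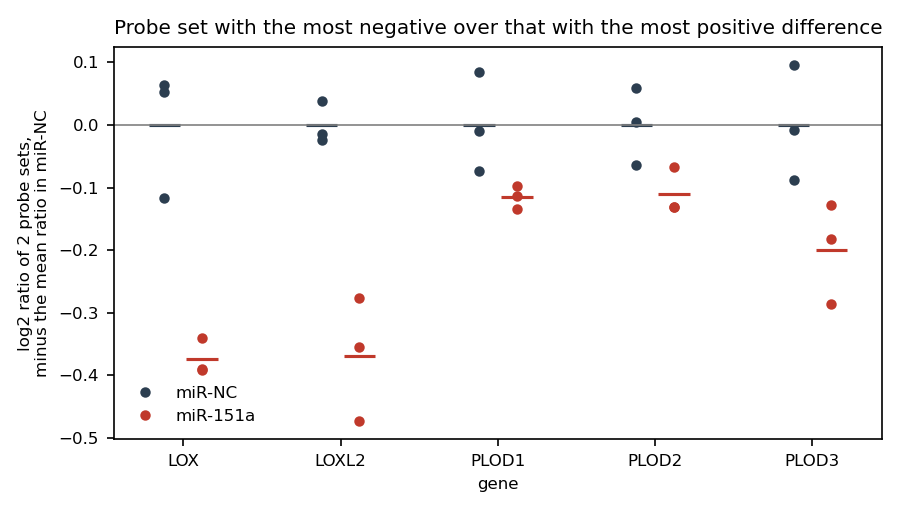
Log2 ratio, within each array, of the probe set with the most negative difference to the one with the most positive difference of the same gene (y axis, minus the mean ratio of the miR-NC samples), for LOX, LOXL2 and the 3 PLOD genes (x axis); points are samples and bars group means. The shift was -0.37 for both LOX and LOXL2 and between -0.20 and -0.11 for the PLOD genes; the pairs were picked as extremes, so a negative shift is built in.

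Genes that work beside these enzymes were taken from 7 lists, each gene read by its brightest probe set. Over all genes 8.11% fell and 7.27% rose past an adjusted p of 0.05. The share of all genes at an unadjusted p under 0.05 was not counted, so unadjusted counts of the lists have no background beside them. Among 8 partners of prolyl hydroxylase and genes of the 3-hydroxylase complex, 2 fell and 0 rose in limma (4 and 1 at an unadjusted p under 0.05), with a median of -0.10 beside -0.01 for all genes. They were P3H1, the collagen prolyl 3-hydroxylase, at -0.28 (375 ± 2.73 against 457 ± 17.5 intensity units, SD, n = 3 each; limma adjusted p = 0.0067) and P3H4, a subunit of the lysyl hydroxylase complex, at -0.23 (adjusted p = 0.036, and 0.068 to 0.12 without 1 sample other than miR-151a sample 3). P4HB, the shared beta subunit of prolyl 4-hydroxylase, was at -0.08 (limma adjusted p = 0.34), and at 0.033 with the mean over its 6 probe sets. Of 6 measured genes of procollagen glycosylation and folding, 2 fell and 0 rose in limma (also 2 and 0 at an unadjusted p under 0.05): the endoplasmic reticulum prolyl isomerase genes FKBP7 at -0.30 and FKBP14, which assists procollagen folding, at -0.28. The median of that list was -0.07.

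Of 14 genes of procollagen export and propeptide processing, 3 fell and 1 rose (beside 8.11% and 7.27% of all genes), with a median of -0.13. ADAMTS3, a procollagen N-proteinase, was at -0.43 (33.5 ± 1.39 against 45.4 ± 2.12, SD, n = 3 each; limma adjusted p = 0.0022), and PCOLCE2, an enhancer of C-propeptide removal, at -0.36. With the mean over probe sets ADAMTS3 was at -0.26. CREB3L1, a transcription factor of the secretory pathway, was at -0.30, and KLHL12, an adaptor for large COPII carriers, rose by 18.8%; both are named after their values were seen. CREB3L1 fell on 1 of 2 probe sets, and the mean of both was -0.11 and did not pass (adjusted p = 0.41 in limma). BMP1, which releases the LOX propeptide, did not pass, at -0.19 (limma adjusted p = 0.052), and was at -0.04 with the mean over probe sets. Among 11 substrate collagens, 4 fell and 0 rose in limma (7 and 0 at an unadjusted p under 0.05), with a median of -0.13: COL1A1 at -0.45, COL1A2 at -0.39 and, named after their values were seen, COL5A2 at -0.32 and COL5A1 at -0.24. For COL1A1 2 of 5 probe sets fell, and its mean over probe sets was -0.23; for COL5A2 3 of 6 fell, with a mean of -0.13. The adjusted p of COL5A1 was 0.061 to 0.074 without miR-151a sample 1 or 3 or miR-NC sample 1 or 3.

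Among 11 genes of copper supply and of the matrix scaffold on which lysyl oxidases act, 1 fell and 1 rose, with a median of 0.04. Over all genes 8.11% fell and 7.27% rose, so counts of 1 here and in the next list say little about either list. The microfibril gene FBN1 was at -0.36 and fell on all 5 of its probe sets. The copper chaperone gene CCS rose by 14.2% (limma adjusted p = 0.038), but its adjusted p was 0.057 to 0.13 without any 1 sample and 0.051 with median centring. ATP7A, the pump that loads lysyl oxidases with copper, was at -0.19 (limma adjusted p = 0.063), and at -0.06 with the mean over probe sets. FN1, the fibronectin gene, was at 0.04. Of 7 measured genes of ascorbate and 2-oxoglutarate supply, 1 rose and 1 fell, with a median of -0.11: the isocitrate dehydrogenase gene IDH1 at 0.26 and the glutamate dehydrogenase gene GLUD1 at -0.18, whose adjusted p was 0.071 to 0.15 without any 1 sample and 0.057 with quantile normalization. Averaged over its 3 probe sets GLUD1 was at -0.27.

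Of 15 measured regulators and targets of hypoxia-inducible factors, 5 fell and 1 rose (beside 8.11% and 7.27% of all genes), with a median of -0.05. NDRG1 and ANKRD37, both hypoxia-induced genes, were at -0.30 and -0.31. The other genes that passed, named after their values were seen, were the glucose transporter gene SLC2A1 at -0.40, the kinase gene PDK1 at -0.27, the HIF ubiquitin ligase gene VHL at -0.17 and the asparagine hydroxylase gene HIF1AN at 0.18. PDK1 and VHL each fell on 1 of 2 probe sets and did not pass with the mean over both, at -0.11 and -0.096 (limma adjusted p = 0.18 and 0.19). The adjusted p of VHL was 0.063 to 0.12 without any 1 sample, and that of PDK1 0.056 to 0.060 without miR-151a sample 2 or miR-NC sample 1 or 2. HIF1AN rose on 1 of 3 probe sets and fell on 1, its mean over probe sets was -0.015 (limma adjusted p = 0.83), and with median centring its adjusted p was 0.051. HIF1A itself was at 0.15 by its brightest probe set (limma adjusted p = 0.10), but 5 of its 8 probe sets rose and the mean over all 8 passed, at 0.19 (limma adjusted p = 0.0090). The hypoxia target VEGFA was at 0.09 by its brightest probe set (adjusted p = 0.29 in limma), while 3 of its 10 probe sets rose and the mean over all 10 passed, at 0.15 (limma adjusted p = 0.025). The 5 falls became 3 without miR-151a sample 2 or miR-NC sample 1 or 2, and the 1 rise became 0 without miR-151a sample 2 or 3 or any 1 miR-NC sample. Averaged over probe sets NDRG1 was at -0.14 and did not pass (adjusted p = 0.069), and ANKRD37 was at -0.19.

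**Figure D4:**
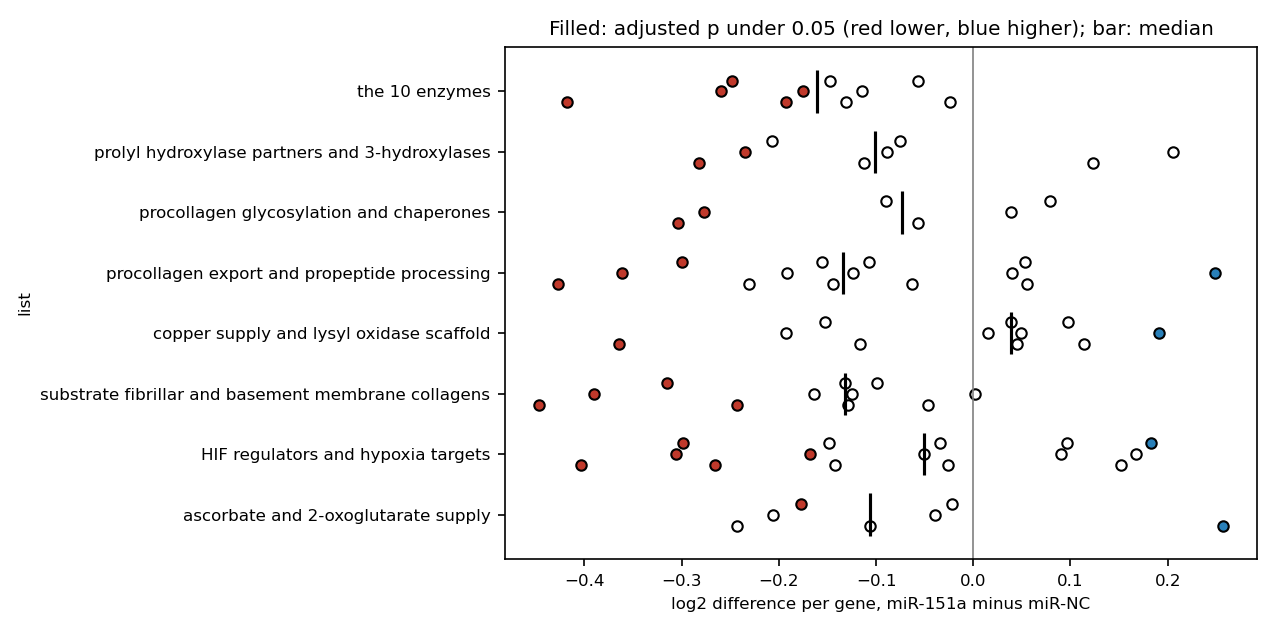
Log2 difference per gene between miR-151a and miR-NC samples (x axis) for the 10 enzymes and the 7 related lists (rows), each gene by its brightest probe set; filled points passed an adjusted p of 0.05 (red lower, blue higher) and bars are medians. The 10 enzymes all lie left of 0 with a median of -0.16 (with the mean over probe sets LOXL4 and PLOD3 would lie right of 0), while the scaffold and copper list has its median at 0.04.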

How the data were processed

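Messenger RNA was profiled in 6 samples of U87 cells, 3 with miR-151a and 3 with miR-NC, grouped by their titles. The labels' protocols give Trizol extraction and biotin labelling after an Affymetrix manual for whole transcripts. The probe set names are those of a 3 prime expression array, so which labelling was used is not settled. The values the authors deposited are linear probe set intensities. The submitters' processing notes name MAS5. Further steps (background, summarization, scaling): not given in the sources used here. The arrays had close quantiles, which would hide a change common to most transcripts. The number of arrays limits the precision, and detection calls were not used here.

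Of 49395 rows, 102 are control probe sets and were not compared. Among the rest, 44988 named 1 gene in the platform annotation, 1832 several and 2473 none; 44961 of the first matched RefSeq by Entrez identifier. Log2(intensity + 1) values entered limma 3.58.1 under R 4.3.3 (lmFit, then eBayes, group as the single term). P-values were adjusted by Benjamini-Hochberg over 49293 probe sets, or over 18132 genes, and 0.05 was the threshold. A gene was represented by its brightest probe set, that is, the highest mean log2 value in the 6 samples. The fit was tested on simulated data. Figures were drawn with matplotlib 3.10.9.

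The enzymes and lists were chosen with earlier results of these data known. The text names all 10 enzymes and, of each list, the 2 passing genes with the smallest p; others are marked or given as background. The fits were repeated after quantile normalization or median centring; at a pseudocount of 32; without probe sets under the 0.25 quantile of level; using array weights, or a robust fit on a variance trend; blocked by replicate number; averaging each gene's probe sets; and leaving out every sample once.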

Additional observations from a re-analysis of the deposited data

How the results depend on the processing

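The 28 member probe sets and 49 named genes were compared between settings. Of 584 such comparisons, leaving out single samples aside, 526 kept their direction and side of the threshold, 23 lost the call, 31 gained it and 4 changed sign; without 1 sample the counts were 369 of 462 kept, 81 lost, 1 gained and 11 of opposite sign. The 4 sign changes came with the mean over probe sets: HIF1AN at -0.015, P4HB at 0.033, LOXL4 at 0.0077 and PLOD3 at 0.054. The opposite signs without 1 sample were at values near 0: FN1 at -0.0083 and -0.016 without miR-151a sample 1 and miR-NC sample 3 (up to 0.11 without 1 sample), LOXL3 11759968_at at 0.043 and 0.047 without miR-151a sample 3 and miR-NC sample 1 (from -0.056 without 1 sample), LOXL4 11727441_at at 0.015 without miR-151a sample 3 (from -0.13), PLOD3 11758519_s_at at 0.013 and 0.0019 without miR-151a sample 1 and miR-NC sample 2 (from -0.054), and PLOD3 11715786_at at 0.023 without miR-151a sample 1 (from -0.10); the brightest probe sets of LOXL4 and PLOD3 count again as genes. Without 1 sample, member probe sets that fell numbered 5 to 9 and member genes 2 to 3; all probe sets that fell 1893 to 2426 and rose 2171 to 2689, and all genes that fell 800 to 1021. Deviations of same-numbered samples from their group means were weakly correlated (-0.12 to 0.066). Differently numbered samples were not compared, so whether the replicate numbers pair the samples is not settled. With the replicate number as a block, 2052 probe sets and 822 genes fell, with 8 member probe sets and 3 member genes among them. In the probe set fit LOXL1 11717551_a_at (adjusted p = 0.080), PLOD2 11721333_a_at (0.098) and P4HA1 11730853_s_at (0.051) then lost their calls, and in the gene fit P3H4, CCS, GLUD1, COL5A1, SLC2A1, PDK1, VHL, HIF1AN, DDR2, ITGA2, LOXL1 and PLOD2 (0.051 to 0.095). With a pseudocount of 32, 5396 probe sets and 2218 genes fell, and with the trend and robust fit 5856 and 2388. The cause was not tested.

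For the lists, falls of prolyl hydroxylase partners (2 as reported) were 4 with the mean over probe sets, a pseudocount of 32 or the trend fit, 1 with the replicate block and 1 to 2 without 1 sample, and rises (0) were 1 with the mean over probe sets. Rises of glycosylation and chaperone genes (0) were 1 with the mean over probe sets. Falls of export and processing genes (3) were 5 without low values, 6 with a pseudocount of 32 and 7 with the trend fit. Falls of copper and scaffold genes (1) were 2 without low values or with quantile normalization, 3 with a pseudocount of 32 or the trend fit and 1 to 2 without 1 sample, and rises (1) were 0 with median centring, the replicate block or 1 sample left out (0 to 0) and 2 with a pseudocount of 32. Falls of substrate collagens (4) were 7 without low values, with a pseudocount of 32 or with the trend fit. Falls of hypoxia genes (5) were 2 with the mean over probe sets or the replicate block and 3 to 4 without 1 sample, and rises (1) were 2 without low values or with quantile normalization, 3 with the mean over probe sets or a pseudocount of 32, 0 with median centring or the replicate block, 5 with the trend fit and 0 to 2 without 1 sample. Falls of ascorbate and 2-oxoglutarate genes (1) were 2 without low values, with median centring or with the trend fit, 3 with a pseudocount of 32, 0 with the replicate block and 0 to 1 without 1 sample. The intensities carry no depth, and the dim probe sets of LOXL4 and LOXL3 limit what can be seen for them.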

Other observations

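Receptors that bind collagen, looked up after the first results were seen, moved in both directions. Of 7 measured genes, 1 rose and 2 fell past an adjusted p of 0.05 in limma (beside 7.27% and 8.11% of all genes), with a median of -0.10. DDR2, a receptor tyrosine kinase for fibrillar collagen, was higher with miR-151a, at 972 ± 20.3 against 845 ± 11.3 intensity units (SD, n = 3 each; log2 difference 0.20, limma adjusted p = 0.019, range over the alternatives 0.00013 to 0.074, above the threshold without miR-151a sample 3 or any 1 miR-NC sample). The integrin subunit genes ITGA2 and ITGA10 were lower, at -0.23 and -0.40 (ITGA10 at -0.25 with the mean over probe sets); for ITGA2 the limma adjusted p was 0.014 and ranged from 2.6e-05 to 0.056, with 0.051 and 0.056 without miR-151a or miR-NC sample 3. ITGA1 was at 0.21 (limma adjusted p = 0.059), and DDR1, ITGA11 and MRC2 did not pass either.

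Other enzymes that crosslink the matrix, also looked up after the first results were seen, gave 0 calls of 6 in limma (1, lower, at an unadjusted p under 0.05), with values from -0.12 to 0.14. Over all genes 15.4% passed an adjusted p of 0.05 in either direction. The tissue transglutaminase gene TGM2 was at -0.12 (limma adjusted p = 0.11, and 0.018 to 0.52 over the alternatives). The peroxidasin gene PXDN, whose product crosslinks collagen IV, was at 0.14 (limma adjusted p = 0.22).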
